A study of Mus musculus with 45 samples.

Results

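A set of 7 genes of the 2-cell-like state was followed through the reprogramming of mouse neural progenitors: Zscan4c, Zscan4d, Zscan4f, Eif4a3l1, Zfp352, Tcstv1 and Tcstv3. They were taken from a list of genes known for this state, because reprogrammed cells in 2i-LIF had higher values than embryonic stem cells and because of their course over time. Of the 7 genes, 5 had a row among the 23575 genes of the deposited table of CPM, reads scaled to a fixed library total. Zfp352 and Tcstv1 had none, so no gene-level expression is given for them. The series held 45 long-read RNA libraries made in 2 ways. The 22 R9 libraries were direct cDNA of poly(A)-enriched RNA on R9.4.1 flow cells, and the 23 R10 libraries were PCR cDNA of total RNA on R10.4.1 flow cells. Whether both kinds of library were made from shared RNA is not given in the labels.

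All cells other than some stem cell libraries came from line O4G, an Oct4-GFP embryonic stem cell line derived from R1. Progenitors of genotype OKMS-Luciferase-AS, OKS-Luciferase-AS or WT were grown in NPC medium (day 0). Induction was in FBS-LIF with doxycycline, sampled in R9 at days 2, 4, 6, 10, 14 and 20 for both factor sets. In R10 it was sampled at days 2, 6 and 18 for both, with OKMS also at days 4 and 10. WT progenitors, which carry no factors, were held in the same medium with doxycycline for 2 days. Some OKMS and OKS cultures continued in 2i-LIF, which holds LIF and kinase inhibitors but no serum. For R9 the labels place that move at day 6, with libraries of OKMS at days 14 and 20 and OKS at day 20. For R10 there was 1 day 18 library of each factor set, with no day of the move in the labels. Each factor set, day, medium and chemistry had 1 library. WT embryonic stem cells in 2i-LIF were O4G and R1 in R9, and O4G, R1 and R1-Clone3 (by its name a clone) in R10, with 2 numbered libraries of each of these 3 plus 1 R1 library with no number.

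The 2-cell-like state is named after the mouse embryo at the stage when its own genome is first transcribed. Cultures of embryonic stem cells hold a small and changing fraction of cells that switch on the transcripts of that stage for a short time. Zscan4 genes encode proteins with a SCAN domain and zinc fingers, are transcribed in bursts in such cells, and are known for their part in telomere lengthening. Many other transcripts of the state start in long terminal repeats of endogenous retroviruses.

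All 7 genes are protein-coding in GENCODE M21 (GRCm38), and the Zscan4 copies lie in 1 cluster on chromosome 7. Zscan4c (ENSMUSG00000054272.6) spans chr7:11005745-11010547 on the plus strand, Zscan4d (ENSMUSG00000090714.10) chr7:11161374-11166159 on the minus strand and Zscan4f (ENSMUSG00000070828.10) chr7:11397915-11402318 on the plus strand. RefSeq (GRCm38.p6) holds promoters for 5 of the 7 genes, each from 250 bases before to 50 bases after the start. The 3 Zscan4 promoters are shown because they let a reader see how alike the copies are at their starts. Capitals mark TGATTNAA at one end and TATAAAAG at the other, 138 bases in all, upstream of the gene start. The stretches are chr7:11005561-11005698 (plus strand), chr7:11166206-11166343 (minus strand) and chr7:11397754-11397891 (plus strand).
Zscan4c: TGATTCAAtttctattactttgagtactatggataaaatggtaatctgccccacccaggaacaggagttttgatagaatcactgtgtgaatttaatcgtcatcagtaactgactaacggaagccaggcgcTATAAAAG
Zscan4d: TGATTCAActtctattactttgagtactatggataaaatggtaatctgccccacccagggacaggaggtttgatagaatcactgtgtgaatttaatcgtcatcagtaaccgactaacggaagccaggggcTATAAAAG
Zscan4f: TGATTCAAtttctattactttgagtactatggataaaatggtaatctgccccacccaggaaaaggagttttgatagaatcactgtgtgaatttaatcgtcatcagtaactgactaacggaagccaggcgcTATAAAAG

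Zscan4c and Zscan4f differ at 1 of these 138 bases (99.3% identity), Zscan4c and Zscan4d at 5 (96.4%) and Zscan4d and Zscan4f at 6 (95.7%). The motifs were chosen after these promoters had been seen and were searched on both strands. TGATTNAA occurs in 943 of 32851 RefSeq promoters of the same length (2.87%) and TATAAAAG in 560 (1.70%). The longer published motif of the factor Dux, of which TGATTNAA is the first part, occurs in 11 promoters (0.0335%), none of them of these genes.

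Eif4a3l1 (ENSMUSG00000094973.2, listed as Gm8994 in GENCODE M21) lies on chromosome 6 at chr6:136327539-136329983, plus strand. It is a close relative of Eif4a3, the RNA helicase of the exon junction complex. The stretch before its start is shown beside that of Zfp352 (chromosome 4, chr4:90218820-90225702, plus strand), a zinc finger gene of the 2-cell embryo. They share CTGCTGGAG and ATATAAGG, in capitals, the latter ending 21 bases before the start in both. Their positions are chr6:136327478-136327517 and chr4:90218758-90218798, both on the plus strand.
Eif4a3l1: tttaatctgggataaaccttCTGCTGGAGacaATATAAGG
Zfp352: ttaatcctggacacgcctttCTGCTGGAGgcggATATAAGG

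These stretches differ at 10 of 43 aligned bases (76.7% identity). ATATAAGG occurs in 255 of the 32851 promoters (0.776%), CTGCTGGAG in 363 (1.10%) and both in 28 (0.0852%). These motifs too were chosen after the promoters had been seen, and the 28 include both genes, so nothing is read from these shares.

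How far reads can be told apart between copies depends on how the copies differ inside the transcript. The longest open reading frames of Zscan4c, Zscan4d and Zscan4f each have 1521 bases in GENCODE, of which 38 are not the same in all 3. Zscan4c and Zscan4f differ at 6 bases (99.6% identity), and Zscan4d is 97.7% identical to either. No stretch of 60 bases holds more than 6 of the 38, and the first that holds 6, at positions 1032 to 1091 counted from the start codon, is shown with the differing bases in capitals.
Zscan4c: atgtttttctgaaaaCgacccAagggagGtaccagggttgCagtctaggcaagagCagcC
Zscan4d: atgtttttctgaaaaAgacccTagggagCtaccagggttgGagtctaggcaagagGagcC
Zscan4f: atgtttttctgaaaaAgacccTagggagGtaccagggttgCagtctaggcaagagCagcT

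Eif4a3l1 and Eif4a3 have reading frames of 1236 bases with 96.3% identity. Positions 6 to 65 hold 8 of the differences, again in capitals.
Eif4a3: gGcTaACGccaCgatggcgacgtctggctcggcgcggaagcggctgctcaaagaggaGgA
Eif4a3l1: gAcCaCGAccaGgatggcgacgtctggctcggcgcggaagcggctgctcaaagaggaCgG

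Tcstv3 (ENSMUSG00000095821.2, chromosome 13, chr13:120316878-120318178, plus strand) has a reading frame 93.6% identical to that of Tcstv1 (chr13:119893388-119894785, minus strand). Values of single Zscan4 copies are therefore uncertain, and their summed CPM is given first.

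Depth sets the floor of these low values. R9 libraries held 447990 to 1390424 gene-assigned reads and R10 libraries 566599 to 4236442. The R10 libraries in 2i-LIF were the shallow ones: 1 read was worth 1.76 CPM in OKMS and 1.56 CPM in OKS, against 0.236 to 0.448 CPM in the R10 stem cells. The stem cell library with no number had 0.124% of its reads in mitochondrial genes, against 1.81% to 2.35% in the numbered ones and 1.56% and 1.96% in the R10 cells in 2i-LIF. The part of depth and of this share in the results was not tested. The summed CPM of 14 pluripotency genes, all present, was 14845 to 16342 in the R10 cells in 2i-LIF and 11893 to 14511 in the R10 stem cells. The order was not the same in R9, with 10679 to 14533 in the cells in 2i-LIF and 13520 to 15323 in the stem cells. In bulk RNA a lower value from fewer cells of a type and one from less RNA per cell cannot be told apart.

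The 3 Zscan4 genes were at 0 reads in all progenitors, in WT cells after 2 days of doxycycline and in all OKMS and OKS libraries up to day 10, in both chemistries. In FBS-LIF with doxycycline their summed level in R9 OKMS cells was 9.50 CPM at day 14 (9 reads) and 24.6 CPM at day 20 (20 reads). In R9 OKS cells it was 0 at day 14 and 0.719 CPM at day 20, which is 1 read. At day 18 in R10 it was 0 in OKMS and 1.28 CPM, again 1 read, in OKS. Reads of these 3 genes in serum were thus found at days 14 and 20 in R9 OKMS cells, with no more than 1 read in any other serum library.

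**Figure D1:**
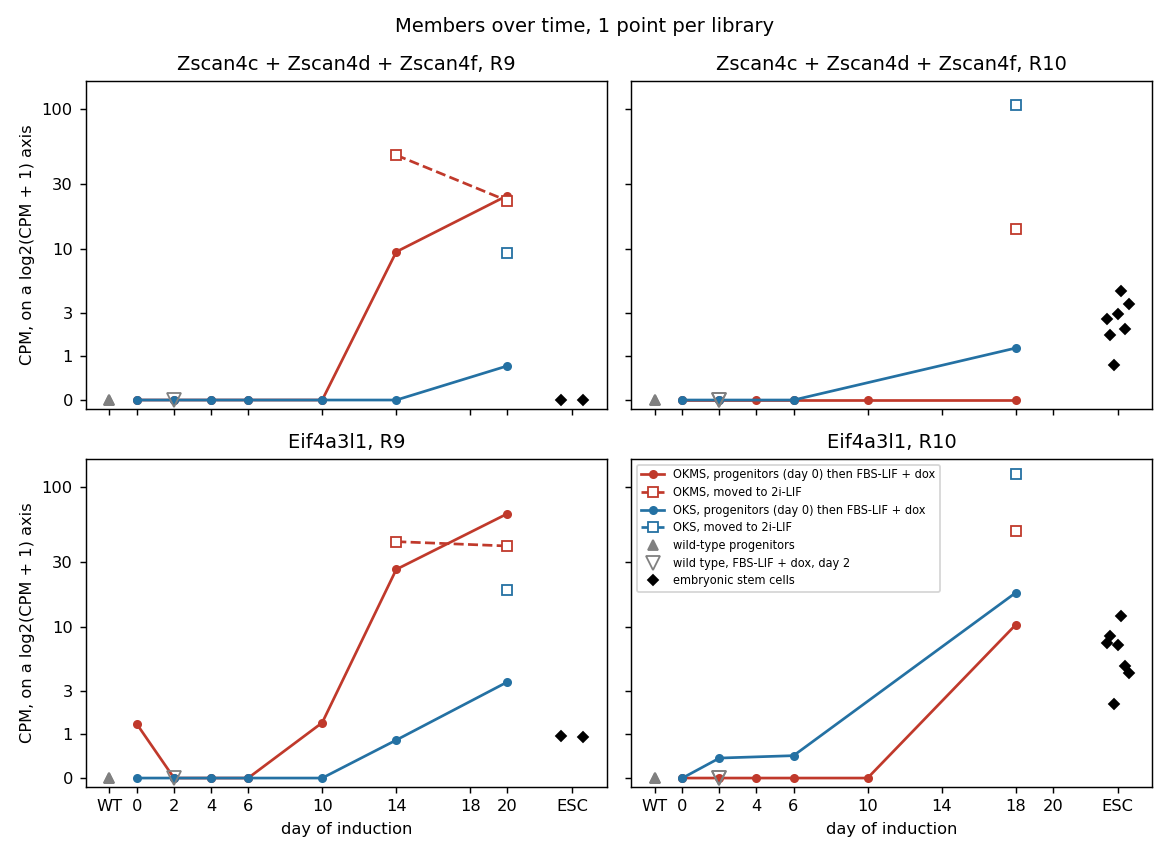
Summed Zscan4c, Zscan4d and Zscan4f (top) and Eif4a3l1 (bottom) in CPM on a log2(CPM + 1) axis against the day of induction, 1 point per library, R9 left and R10 right; WT and ESC mark wild-type cells and embryonic stem cells. Zscan4 is at 0 through day 10, and the R10 cells in 2i-LIF reach 14.1 and 106 CPM, above the highest stem cell library at 4.65 CPM.

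In 2i-LIF the summed Zscan4 level was 47.6 CPM in R9 OKMS cells at day 14 (39 reads, exact Poisson 95% interval 33.9 to 65.1), 22.6 CPM in R9 OKMS cells at day 20 (21 reads, 14.0 to 34.5) and 9.31 CPM in R9 OKS cells at day 20 (8 reads, 4.02 to 18.3). In R10 at day 18 it was 14.1 CPM in OKMS (8 reads, 6.09 to 27.8) and 106 CPM in OKS (68 reads, 82.6 to 135). These intervals cover counting error only. Both R9 stem cell libraries had 0 reads, and the 7 R10 stem cell libraries ranged from 0.747 to 4.65 CPM with a median of 2.59. The groups did not overlap in either chemistry.

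In R10 the sum averaged 60.2 ± 65.2 CPM (SD, n = 2) in 2i-LIF and 2.62 ± 1.27 CPM (SD, n = 7) in stem cells, 22.96-fold apart and 3.56 apart as means of log2(CPM + 1). The OKS library carried much of that mean: the log2 difference was 2.14 with OKMS alone and 4.97 with OKS alone. Against the numbered stem cell libraries it was 3.40, and against the O4G stem cells, the parent line, 3.67. In R9 the sum averaged 26.5 ± 19.5 CPM (SD, n = 3), at least 18.8-fold higher than the 1.41 CPM that 3 reads over both stem cell libraries would give, and at least 11.3-fold without the OKMS library of day 14. Because the genes were chosen on this contrast and on time, these differences are a description without a test.

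**Figure D2:**
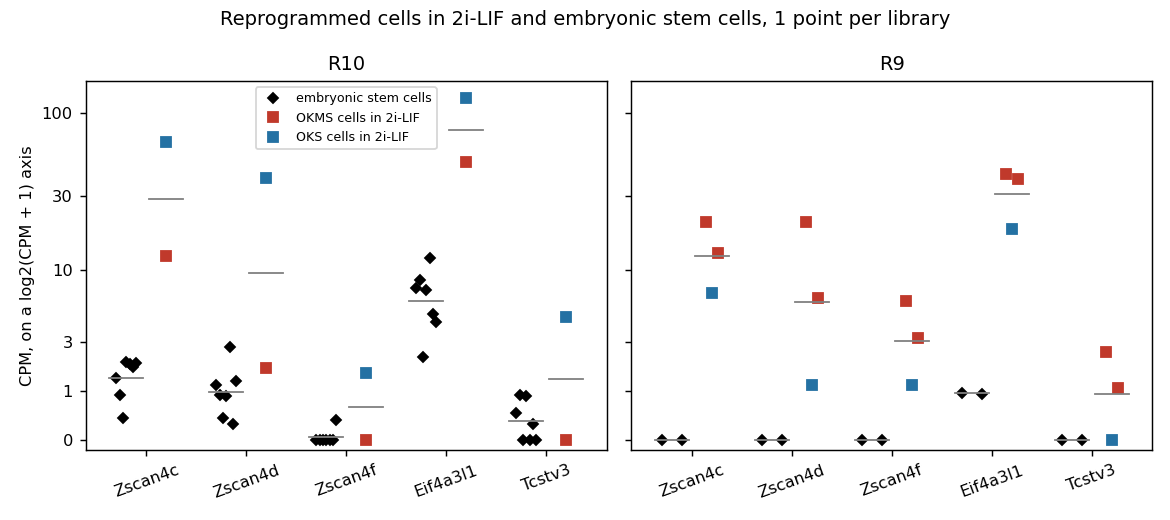
The 5 genes in reprogrammed cells in 2i-LIF (squares) and embryonic stem cells (diamonds), CPM on a log2(CPM + 1) axis, 1 point per library, with grey lines at the mean of log2(CPM + 1). Zscan4c and Eif4a3l1 do not overlap in either chemistry, while Zscan4d, Zscan4f and Tcstv3 overlap in R10.

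Zscan4c followed the sum. Its level in 2i-LIF was 12.3 (OKMS) and 65.7 CPM (OKS) in R10 at day 18, and in R9 20.8 (OKMS day 14), 12.9 (OKMS day 20) and 6.98 CPM (OKS day 20). R10 stem cells had 0.373 to 2.03 CPM with a median of 1.82, and R9 stem cells had 0. Every library in 2i-LIF lay above every stem cell library of its chemistry. The log2 difference was 3.63 in R10 (means of 39.0 ± 37.7 CPM, SD, n = 2, and 1.49 ± 0.637 CPM, SD, n = 7). It was 2.47 without the OKS library and 4.79 without the OKMS library. In R9 the mean of 13.5 ± 6.91 CPM (SD, n = 3) was at least 9.60-fold higher than the stem cell floor.

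Zscan4d had 39.1 CPM in the R10 OKS library and 1.76 CPM, 1 read, in the R10 OKMS library. The latter lay below the highest R10 stem cell library, R1-Clone3 with 2.71 CPM, so the R10 groups overlapped. The log2 difference of 2.42 was 0.49 without the OKS library and 4.35 without the OKMS library. In R9 Zscan4d was at 20.8, 6.45 and 1.16 CPM in the order above, against 0 in stem cells, with a mean of 9.46 ± 10.1 CPM (SD, n = 3), at least 6.70-fold higher than the floor. That bound rested on the OKMS library of day 14, without which it was 2.70-fold, and the OKS value is 1 read and lies below the floor of 1.41 CPM.

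Zscan4f had more reads in R9 than in R10. In R9 it had 6.11, 3.22 and 1.16 CPM in 2i-LIF, in the same order, and 0 in stem cells, a mean of 3.50 ± 2.48 CPM (SD, n = 3) and at least 2.48-fold above the floor (1.55-fold without the OKMS library of day 14). In R10 it had 1 read over both libraries in 2i-LIF and 1 read over the 7 stem cell libraries, too few for a fold.

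Counted by gene, Zscan4c, Zscan4d, Zscan4f and Eif4a3l1 were higher in every R9 library in 2i-LIF than in either R9 stem cell library, as were 13.7% of all genes tested. Zscan4c and Eif4a3l1 were so in R10, against 10.8% of all genes. In both chemistries together the background was 2.35% (339 of 14413 genes), and 2 of the 5 genes with a row, Zscan4c and Eif4a3l1, met it. The choice of the genes used this contrast, so nothing is read from these counts.

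The gene table held 7 Zscan4 rows: Zscan4a, Zscan4c, Zscan4d, Zscan4e, Zscan4f, Zscan4-ps2 and Zscan4-ps3. Zscan4-ps2 is the closest in sequence to Zscan4f (99.7% identity of the reading frame), and Zscan4a, a pseudogene in GENCODE, has a shorter longest frame, of 1083 bases against 1521 in Zscan4c. Over all 7 rows the reads numbered 120 in R10 cells in 2i-LIF, 114 in R9 cells in 2i-LIF, 105 in R10 stem cells and 60 in R9 serum cells of days 14 and 20. Zscan4c held 40.8% of the reads in R10 cells in 2i-LIF, 32.4% in R10 stem cells, 30.7% in R9 cells in 2i-LIF and 21.7% in R9 serum cells. Zscan4d held 18.3% to 21.9% of these pooled reads, but not of every library: it had 25 of 103 reads in R10 OKS cells in 2i-LIF, 1 of 17 in R10 OKMS cells and 1 of 16 in R9 OKS cells in 2i-LIF. The R10 share in 2i-LIF thus rested on the OKS library. Zscan4f held 7.89% and 10.0% in the R9 groups, and 0.833% and 0.952% in the R10 groups. Zscan4a ranged from 12.3% of the reads in R9 cells in 2i-LIF to 23.3% in R9 serum cells.

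With all 7 rows summed, the R10 level was 30.0 CPM in OKMS and 161 CPM in OKS in 2i-LIF, against 1.49 to 8.91 CPM in stem cells. In R9 it was 78.2, 36.5 and 18.6 CPM in the order used above, against 0.947 CPM (1 read, in O4G, on Zscan4e) and 0. The wider sum therefore also separated the groups in each chemistry. The R9 OKMS serum library of day 20 had 49.3 CPM on this sum, above its 2i-LIF counterpart. Their Poisson intervals overlap (35.2 to 67.1 and 25.3 to 51.1 CPM). The R10 OKMS serum library of day 18, at 0 for Zscan4c, Zscan4d and Zscan4f, had 5.94 CPM on it, from 3 reads of Zscan4a and 1 of Zscan4e.

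**Figure D3:**
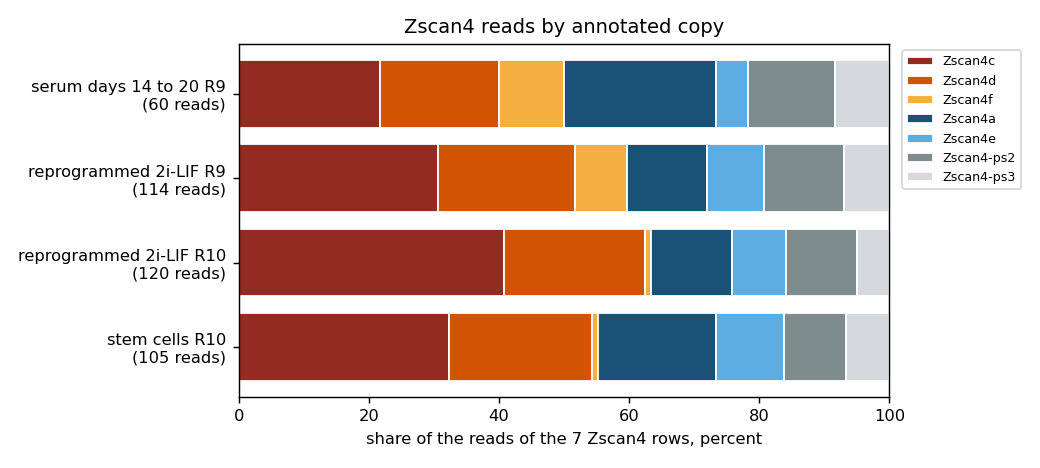
Share of Zscan4 reads, in percent, by annotated copy, pooled over the libraries of each group, with the number of reads beside each bar. Zscan4c is the widest segment in the 2i-LIF and stem cell groups, and Zscan4f is near 1% in both R10 groups (0.833% and 0.952%).

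Eif4a3l1 had reads in more libraries than the 3 Zscan4 genes. In progenitors and through day 10 it had 1 read in each of 4 libraries: R9 OKMS progenitors (1.35 CPM), R9 OKMS at day 10 (1.41 CPM), R10 OKS at day 2 (0.373 CPM) and R10 OKS at day 6 (0.427 CPM). All other libraries of those stages, WT included, had 0. In serum it then reached 26.4 CPM at day 14 and 65.3 CPM at day 20 in R9 OKMS (53 reads). R9 OKS serum cells had 0.827 and 3.59 CPM at those days. At day 18 in R10 serum it was 10.4 CPM in OKMS (7 reads) and 17.9 CPM in OKS (14 reads), where Zscan4c, Zscan4d and Zscan4f together had at most 1 read.

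In 2i-LIF Eif4a3l1 was at 49.4 CPM in R10 OKMS (28 reads, exact Poisson 95% interval 32.8 to 71.4) and at 124 CPM in R10 OKS (79 reads, 97.8 to 154). In R9 it was at 41.5 CPM (OKMS day 14), 38.7 CPM (OKMS day 20) and 18.6 CPM (OKS day 20). R10 stem cells ranged from 2.24 to 12.0 CPM with a median of 7.25, and the R9 stem cell libraries had 1 read each (0.947 and 0.931 CPM). No library in 2i-LIF reached down to a stem cell library.

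The R10 means were 86.5 ± 52.5 CPM (SD, n = 2) and 6.68 ± 3.20 CPM (SD, n = 7), 12.9-fold apart and 3.49 on the log2(CPM + 1) scale. That difference was 3.30 against the numbered stem cell libraries and 3.14 against O4G stem cells. It was 2.83 (7.39-fold) without the OKS library and 4.14 (18.5-fold) without the OKMS library. In R9 the means were 32.9 ± 12.5 CPM (SD, n = 3) and 0.939 ± 0.0114 CPM (SD, n = 2), a log2 difference of 4.05. Stem cells in R10 in turn had at least 23.6-fold more Eif4a3l1 than the floor of 0.283 CPM in R10 progenitors, where it was at 0. The Zscan4 sum was at least 9.28-fold above the same floor. R9 did not separate these groups. The R9 stem cells, with 1 Eif4a3l1 read each, lay below the R9 OKMS progenitors at 1.35 CPM, also 1 read. The R9 means, 0.939 CPM in stem cells and 0.337 CPM in progenitors, ran in the direction of R10 but rest on these single reads. The Zscan4 sum was 0 in both R9 groups.

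Eif4a3 itself, whose reads could be mistaken for those of Eif4a3l1, is given for comparison, and the part of such reads in the values was not tested. Eif4a3 averaged 414 ± 93.9 CPM (SD, n = 2) in R10 cells in 2i-LIF and 444 ± 42.4 CPM (SD, n = 7) in R10 stem cells. In R9 the means were 514 ± 47.7 (SD, n = 3) and 447 ± 53.0 CPM (SD, n = 2). The R10 progenitors held 4451 Eif4a3 reads and 0 Eif4a3l1 reads. The R9 OKMS progenitors held 312 Eif4a3 reads and 1 Eif4a3l1 read, and the other 3 R9 progenitor libraries held 0. As a share of the reads of both genes, Eif4a3l1 made up 20.5% in R10 OKS cells in 2i-LIF, 12.4% in R10 OKMS cells, and 7.80%, 7.42% and 3.17% in the R9 libraries in 2i-LIF. In stem cells the share was 0.497% to 2.23% in R10 and 0.231% and 0.192% in R9.

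The ratio of Eif4a3l1 reads to Zscan4 reads varied between libraries. There were 0.872 to 3.50 Eif4a3l1 reads per read of the 3 Zscan4 genes in 2i-LIF and 1.18 to 4.75 in R10 stem cells. These ranges overlap.

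Tcstv3, a gene of the variable group of 2-cell transcripts, was near the floor everywhere. In 2i-LIF it had 4.69 CPM in R10 OKS (3 reads), 0 in R10 OKMS, 2.44 CPM in R9 OKMS at day 14 (2 reads), 1.07 CPM in R9 OKMS at day 20 (1 read) and 0 in R9 OKS. R10 stem cells had 0 to 0.896 CPM, and R9 stem cells had 0. In serum the highest value was 4.93 CPM in R9 OKMS at day 20 (4 reads). The groups overlapped in both chemistries, and no difference was detectable at this depth.

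The deposited transcripts show which forms these reads took. Before the authors' filter the classification table listed 14 transcripts of Zscan4c, 9 of Zscan4d, 18 of Zscan4f, 11 of Eif4a3l1, 3 of Tcstv3 and 5 of Zfp352. After it 3, 1, 1, 2, 1 and 0 were left. The Zscan4c forms were a 2309-base match to the annotated splicing, an 1839-base form that ended 453 bases earlier, and an 1824-base form. The first exon of the 1824-base form ended 31 bases earlier than that of the 2309-base form, at an unannotated splice site. This form also ended early, at position 11010103, against 11010104 in the 1839-base form and 11010557 in the 2309-base form. Each of the 3 was predicted to encode 506 amino acids. Their mean levels in R10 cells in 2i-LIF were 9.30, 4.85 and 9.67 TPM (a scale corrected for transcript length). In R9 they were 3.95, 3.14 and 2.26 TPM, so no form held all of the Zscan4c signal. By library the R10 values were 1.40, 3.52 and 5.33 TPM in OKMS and 17.2, 6.17 and 14.0 TPM in OKS.

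Zscan4d was represented by a 2249-base transcript with an unannotated splice site (10.1 TPM in R10 and 4.49 TPM in R9, means in 2i-LIF). Its R10 mean came from OKS alone, at 20.2 TPM against 0 in OKMS. In R9 it was at 10.4 (OKMS day 14), 3.08 (OKMS day 20) and 0 TPM (OKS day 20). The Zscan4f transcript of 1807 bases had 0 TPM in R10 and 2.34 TPM in R9 in 2i-LIF. Eif4a3l1 was mostly a 1591-base form, with 42.2 TPM in R10 and 30.0 TPM in R9. A form that ran on to 1612 bases had 4.53 and 5.599 TPM. In R10 stem cells the 1591-base form had the highest mean of all these transcripts, 3.80 TPM.

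The media could be compared within 5 pairs of the same factor set, day and chemistry. They differ in serum and kinase inhibitors, and doxycycline is named here only for FBS-LIF. The parts of these in a difference cannot be told apart. On the log2(CPM + 1) scale the Zscan4 sum in 2i-LIF minus FBS-LIF with doxycycline was 2.21 in OKMS at day 14 (R9), 3.92 in OKMS at day 18 (R10), −0.12 in OKMS at day 20 (R9), 5.56 in OKS at day 18 (R10) and 2.58 in OKS at day 20 (R9). For Eif4a3l1 the differences were 0.64, 2.15, −0.74, 2.72 and 2.10 in the same order. Both were higher in 2i-LIF in 4 of 5 pairs, with means of 2.83 and 1.37. No share of all genes is at hand for 4 of 5 pairs, so nothing is read from this count. In the R9 OKMS pair of day 20 the Zscan4 sum was nearly level, with 21 reads in 2i-LIF and 20 in serum. Its Poisson intervals there were 14.0 to 34.5 and 15.0 to 38.0 CPM. Eif4a3l1 was lower in 2i-LIF in that pair, with 36 reads against 53. Its intervals were 27.1 to 53.6 and 48.9 to 85.4 CPM, which share only a small part. Overlap of separate intervals is not a test of a difference, and this fall was not tested. Zscan4c was higher in all 5 pairs, as were 11.7% of the genes tested. These libraries also entered the choice of the genes, so no test is given.

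**Figure D4:**
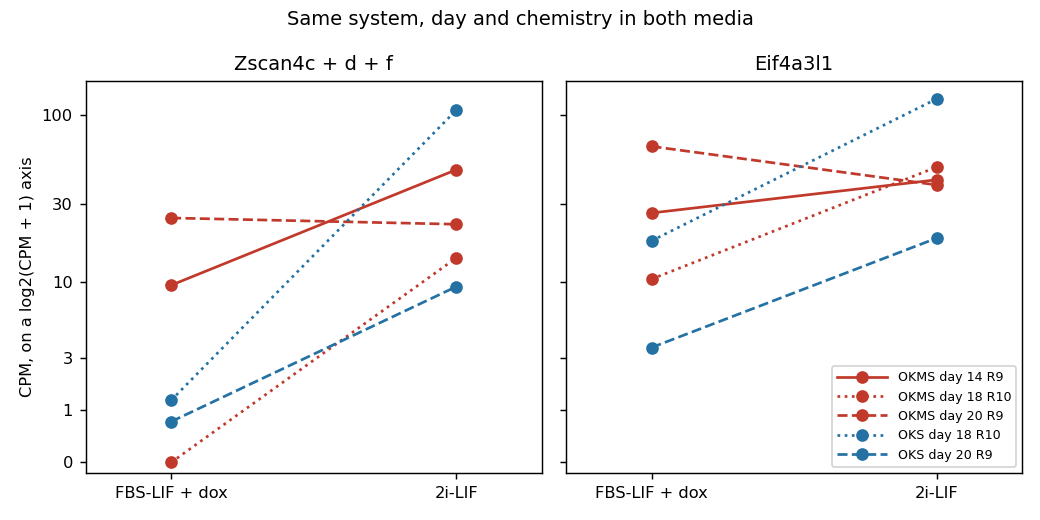
Zscan4 sum (left) and Eif4a3l1 (right) in CPM on a log2(CPM + 1) axis, with a line joining the libraries of 1 pair in both media. Lines rise toward 2i-LIF in 4 of 5 pairs. In the R9 OKMS pair of day 20 Zscan4 is nearly level (24.6 to 22.6 CPM, 20 and 21 reads) and Eif4a3l1 falls (65.3 to 38.7 CPM).

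The factor sets were compared in a test that the choice of genes did not use, over 6 late pairs of the same day, medium and chemistry. The pairs are different conditions with 1 library per factor set, and the labels do not say that they came from separate inductions. The SE and p-values thus measure spread over these conditions, not between replicate inductions. A gene was called where its adjusted p was under 0.05 and its log2 difference at least 1. None of the members was called: Zscan4c differed by 0.39 on the log2 scale (OKMS minus OKS, SE 0.63, limma Benjamini-Hochberg adjusted p = 0.804), Zscan4d by 0.57 (SE 0.75, adjusted p = 0.751) and Eif4a3l1 by 1.33 (SE 0.64, adjusted p = 0.377). Across all genes 0.136% were called (20 of 14699), all lower in OKMS. With edgeR on recovered reads the adjusted p-values were 0.880, 0.792 and 0.475. Zscan4f and Tcstv3 did not pass the filter on low values.

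In sign the pairs split by chemistry, partly on single reads. The Zscan4 sum was higher in OKMS by 3.39 at day 14 in serum, 3.90 at day 20 in serum and 1.19 at day 20 in 2i-LIF, all in R9, and was 0 in both at day 10. It was lower in OKMS by 1.19 in serum, 0 reads against 1, and by 2.83 in 2i-LIF, 8 reads against 68, both at day 18 in R10. Eif4a3l1 was likewise higher in OKMS in all 4 R9 pairs (1.27, 3.91, 3.85 and 1.02) and lower in both R10 pairs (−0.73 and −1.31). Its 1.27, at day 10, is 1 read against 0, where 1 read in the OKS library would be 2.23 CPM. Its −0.73, in serum, is 7 reads against 14, with overlapping Poisson intervals (4.18 to 21.4 and 9.80 to 30.1 CPM). Day and chemistry cannot be told apart here, because day 18 was sampled in R10 only. The late serum libraries also differed in the summed CPM of the 14 pluripotency genes. It was 1037 to 10112.5 in R9 at days 14 and 20, and 5958 to 15942 in R10 at day 18. The part of this spread in the differences between factor sets or media was not tested.

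Stem cell lines were the other test open to these genes. Between O4G, R1 and R1-Clone3 in R10 (2 numbered libraries each), 3.78% of genes were called by limma's F test (557 of 14750). That count was 4 of 15081 with the R1 library with no number added, 302 with DESeq2 and 343 to 475 with 1 library left out, so nothing about the members is read from the share. Of the 3 members tested none was called: adjusted p was 0.607 for Zscan4c, 0.629 for Zscan4d and 0.144 for Eif4a3l1. Eif4a3l1 was at 7.54 and 8.51 CPM in O4G, 4.93 and 4.27 CPM in R1, and 7.25 and 12.0 CPM in R1-Clone3. Both R1 values were the lowest of the 6, 0.69 below O4G on the log2 scale, and its adjusted p ranged from 0.0744 to 0.577 over the alternatives.

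The other genes of the 2-cell list were described beside the members. Of 45 listed genes outside the Zscan4, Eif4a3l and Tcstv families, 14 had a row. They passed the filter mostly through the cells in 2i-LIF, where they are high, and the list was drawn up with results of these data known, so their counts are a description and nothing about the members is read from them. In R10, 10 of 13 tested were called higher in 2i-LIF than in stem cells by limma (background 4.28%) and 8 by edgeR (background 1.03%), with none lower (backgrounds 4.77% and 0.674%). In R9, 6 of 14 were called higher by either tool (background 0.433% and 0.614%) and none lower (0.278% and 0.53%).

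By name, Gm5662 averaged 37.6 CPM in R10 cells in 2i-LIF and 2.00 CPM in R10 stem cells, and 26.5 against 0.473 CPM in R9. Gm5039 averaged 42.6 against 2.36 CPM in R10 and 30.4 against 1.40 CPM in R9. Gm8300 had 31.9 against 1.17 CPM in R10, and 12.7 CPM against 0 in R9. Gm2016, Gm2022 and Gm21761 were also called by both tools in both chemistries. In R10 Gm12794 was called higher by both tools, and Tmem92 and Trim43a, a member of the tripartite motif family, by limma alone. Usp17lb, of a family of deubiquitinating enzymes, rose in R10 by both tools (15.6 against 0.668 CPM) and was not called in R9 (6.11 against 0.465 CPM). Obox6, an oocyte and early embryo homeobox gene, went against the rest of those tested in R10 with 2.55 against 4.12 CPM, and was not called. Trim43b, not tested in R10, had 0 reads there in the cells in 2i-LIF but was present in the stem cells.

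**Figure D5:**
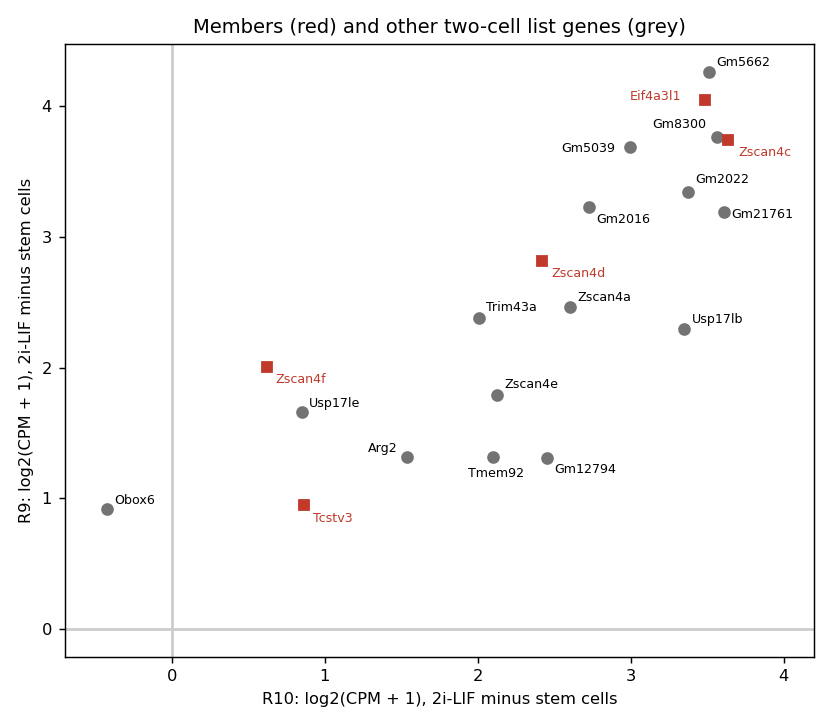
Difference between cells in 2i-LIF and stem cells, as means of log2(CPM + 1), in R10 (x axis) and R9 (y axis) for the 5 members (red squares) and 15 other 2-cell list genes (grey circles). All but Obox6 lie above 0 on both axes, and Obox6 is at −0.42 on the R10 axis. Eif4a3l2 and Trim43b were not tested in R10, where both were at 0 in the cells in 2i-LIF, and are not plotted.

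Over the whole 2-cell list (22 of 58 genes with a row) the summed level was 150 to 605 CPM in R10 cells in 2i-LIF and 137 to 269 CPM in the R9 ones. It was 12.3 to 49.96 CPM in R10 stem cells, 5.68 to 7.45 CPM in R9 stem cells, 34.6 to 54.9 CPM in R10 serum cells of day 18, 4.96 to 269.7 CPM in R9 serum cells of days 14 and 20, and at most 1.35 CPM in any progenitor library. This sum includes the members, and on it the cells in 2i-LIF did not overlap the stem cells in either chemistry. In R9 they did overlap the late serum cells. Between media, 5 of 13 of the other list genes were called higher in 2i-LIF by limma (background 5.95%) and 6 by edgeR (background 6%): Usp17lb, Gm2022, Gm5662, Gm8300 and Trim43a by both, and Gm5039 by edgeR. The comparisons of the media and with the stem cells share the libraries in 2i-LIF, and these counts too are a description.

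Genes that act on the 2-cell program were examined from short lists. Of the activators, Dux was not among the rows used here, and 3 of 5 had a row. Dppa2, which acts upstream of Dux, rose in R9 by both tools (106 ± 12.0 CPM, SD, n = 3, against 34.3 ± 13.03 CPM, SD, n = 2; log2 difference 1.65, limma adjusted p = 0.00591). In R10 it was at 203 ± 149 CPM (SD, n = 2) against 87.5 ± 29.5 CPM (SD, n = 7), not called. Of 23 restrainers, 2 were called lower in R10 by limma and 1 by edgeR, with backgrounds of 4.77% and 0.674%. Setdb1, a histone H3 lysine methyltransferase, fell in R10 by both tools (50.2 against 131 CPM, log2 difference −1.35, limma adjusted p = 0.00372), and in R9 it was at 107 against 92.5 CPM, not called. Lin28a, which encodes an RNA-binding protein, was called by limma alone (2.35 against 11.6 CPM), the tool that made more false lower calls in this comparison on simulated data. Atrx, a chromatin remodeller, was called lower by both tools when the stem cell library with no number was left out (log2 difference −1.05, limma adjusted p = 0.00602) and by neither with it (−0.83, limma adjusted p = 0.173). Against the numbered libraries alone, 5.59% and 2.4% of all genes were called higher and 6.59% and 1.59% lower, by limma and edgeR.

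None of the 10 telomere genes, which protect or extend chromosome ends, was called in R10 or R9 by either tool. Of 7 genes of the exon junction complex and relatives of Eif4a3, Eif4a2, a translation initiation helicase, rose in R10 by both tools (1243 against 511 CPM, log2 difference 1.27, limma adjusted p = 0.00965). Magohb was called lower in R9 by edgeR alone (edgeR log2 difference −1.02, edgeR adjusted p = 0.0434). Among 14 pluripotency genes, Klf2 was called higher in R10 by limma alone, Klf5 and Tdh lower in R10 by edgeR alone, and Dppa3 lower in R9 by edgeR alone. Against the numbered stem cell libraries, Klf2 was called higher (edgeR adjusted p = 0.0127) and Tdh lower (edgeR adjusted p = 0.00117) by both tools. Klf5 was called by neither there, since its log2 difference of −0.88 (limma adjusted p = 0.00239) was smaller than the difference of 1 that a call needs. Neural markers were not called in R10, except Slc1a3 lower by limma alone against the numbered libraries, and Fabp7 was called higher in R9 by edgeR alone. No mesenchymal, primitive endoderm or trophoblast marker was called in either chemistry. Few could be tested: 4 of 7 primitive endoderm and 3 of 6 trophoblast genes had a row. In R10 the primitive endoderm genes tested were Gata4 (log2 difference 1.81, limma adjusted p = 0.0562) and Dab2 (−0.74, limma adjusted p = 0.499). The lack of calls is thus not read as a lack of difference.

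Genes with the most similar pattern were ranked by Pearson's r with the Zscan4 sum on the log2(CPM + 1) scale over the 23 R10 libraries, as a description. The filter on low values left 18234 genes, of which the members were then left out, since Zscan4c, Zscan4d and Zscan4f make up the sum. Libraries of a stage share its condition, and depth differs between them. The closest of the other genes was Gm8300 (r = 0.977, and 0.972 over the 22 R9 libraries), followed among named genes by AA623943 (0.943 and 0.977), Trim43a (0.935 and 0.712) and Gm8332 (0.932 and 0.959). The last named row among the 10 closest was Gm21761_B020031M17Rik (0.914 and 0.905). Of the 10 closest, 2 were in the 2-cell list and 5 were unannotated. Over the R9 libraries the unannotated ones were less close, with r from 0.469 to 0.769. Gm8332, which is not in that list, averaged 80.1 CPM in R10 cells in 2i-LIF against 3.09 CPM in stem cells, and 42.8 against 0.939 CPM in R9. Eif4a3l1 had r = 0.883 in R10 and 0.963 in R9, Tcstv3 0.660 and 0.741, and Eif4a3 0.438 and 0.576.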

How the data were processed

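Per the submitters' processing notes, reads were aligned with minimap2 2.24-r1122 to mm10. Per the file headers, the transcript annotation was written with rtracklayer 1.50.0. The authors deposited gene values as CPM and transcript values as TPM, in tables named after IsoQuant, whose version is not given in the sources used here. Each CPM value above 0 divided by the step of its library to a whole number of reads, within 0.02 reads (100% of 711452 values), and from this came reads and depth. A further 13 columns matched no sample and were not used. Values of log2(CPM + 1) entered limma 3.58.1 (R 4.3.3, trend, two-sided). Genes needed at least 1 CPM in a number of libraries equal to the smaller arm. The threshold was an adjusted p (Benjamini-Hochberg) under 0.05 with a log2 difference of at least 1. This scale understates changes of low genes. edgeR 4.0.16 (quasi-likelihood) and DESeq2 1.42.0 were run on the recovered reads. The tests were checked on simulated data with known changes. At the unequal depths of the R10 comparison of 2i-LIF with stem cells limma made 472 false calls there, 455 of them lower. edgeR made 8, of which 7 were lower, so both tools are given. The 758 genes that limma called lower in the real comparison may thus include many false calls. Simulated 2-fold changes were recovered at 14.9% between stem cell lines and 25.4% between factor sets. For 4-fold changes it was 95.5% and 100%. Lack of a call in these 2 tests is thus not read as lack of a difference.

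The members and all gene lists were chosen with earlier results of these data known. Genes named are the members, their families, Eif4a3, list genes that passed a test and the 10 closest patterns. Obox6 was named after its values were seen. The labels do not say that libraries of a line came from separate cultures, so p-values may measure technical spread. The classification table listed 5 transcripts of Zfp352 and 0 of Tcstv1 before the authors' filter, and 0 of either were left after it. Sequence identities were computed with edlib 1.3.9.post1. A fold against a group at 0 uses a floor of 3 reads over that group.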

Additional observations from a re-analysis of the deposited data

Results flagged for a closer look

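A total of 19 groups of 4 to 10 values were examined, some of CPM over libraries and the others of log2 differences over pairs. By Dixon's criterion 3 groups had a single value far from the others, all 3 of them groups of libraries. Zscan4d was at 2.71 CPM in an R1-Clone3 stem cell library (R10, number 2), the highest of the 7 R10 stem cell libraries. For values that are not mostly 0 the criterion flags about 1 group in 20 by chance. Zscan4f was at 0.328 CPM in an R1 stem cell library (R10, number 2), which is 1 read where the other 6 had 0. Eif4a3l1 was at 1.35 CPM in the R9 OKMS progenitors, again 1 read where the other 3 progenitor libraries had 0. A single read among zeros is always picked out by this criterion, so no chance rate applies to these last 2 and nothing is read from them.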

How the results depend on the processing

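The stem cell line test called 557 genes, against 302 with DESeq2, 4 with the R1 library with no number added and 343 to 475 with 1 library left out. With the library number as a replicate block it called 874. The labels do not say what the numbers mark. The difference between the libraries numbered 1 and 2 correlated between lines by 0.161 (O4G and R1), 0.073 (O4G and R1-Clone3) and 0.131 (R1 and R1-Clone3), not all above 0.1, so the numbers were not used as pairs. The test of OKMS against OKS called 20 genes, against 11 with a pseudocount of 0.25, 9 with no filter, 211 with edgeR, 214 with DESeq2, 6 in the R9 pairs, 1211 with all pairs from day 0, 0 with no pair block by limma (617 at an unadjusted p under 0.05) and 8 to 90 with 1 pair left out. None of Zscan4c, Zscan4d and Eif4a3l1 was called under the alternatives in which it was tested. The Zscan4 sum in R10 cells in 2i-LIF against stem cells ran from 2.14 to 4.97 with 1 library left out. Leaving out libraries in 2i-LIF for the folds over the stem cells was chosen after seeing the data. In R9 the log2 difference of the sum was 6.45 with a pseudocount of 0.25 and 3.96 to 5.08 with 1 library left out. Stem cells against progenitors gave 1.77 in R10 and 3.38 with a pseudocount of 0.25, and 0 in R9 and 0.16 after median centring, which by construction moves values of 0. Directions turned in differences that were not called. R1-Clone3 minus O4G ran from −0.12 to 0.87 for Zscan4d and from −0.13 to 0.53 for Eif4a3l1 with 1 library left out, both lowest without the second R1-Clone3 library. OKMS minus OKS ran from −0.0654 to 0.93 for Zscan4c with 1 pair left out. For Zscan4d it ran from −0.00349 to 0.68 with 1 serum pair left out. With a pair in 2i-LIF left out Zscan4d did not pass the filter on low values, so this range does not cover those pairs. Where no cause is named, the cause was not tested. For every gene, 1 read in the R10 libraries in 2i-LIF exceeds 1 CPM, which limits what can be said of a gene with few reads there, such as Zscan4f with 1.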
